A study of Mus musculus with 4 samples.

Results

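Matricellular and adhesive matrix genes were followed across the stromal cells of the mouse small intestine. The group comprised 8 genes, Postn, Tnc, Fn1, Thbs2, Spon1, Spon2, Aspn and Cilp, out of 3891 complete gene rows in the processed table. They were chosen by name with earlier results of these data known, so counts of members called do not test matrix genes as a set. From these same cells the paper names Tnc for its subepithelial cluster and Postn for a part of it. All 8 genes were found and passed the filter on low values. Cells came from wild-type C57Bl/6 mice, male and 8 weeks old by the labels, with no treatment. Live cells were sorted as positive for PDPN (gp38), a surface protein of fibroblasts, and negative for the immune marker CD45, the epithelial marker EpCAM and the endothelial marker CD31. The study made 2 libraries by 10X Genomics and 2 plates by Smartseq2 from them, and the number of mice behind each library was not given in the sources used here.

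Fibroblasts secrete the fibres, linker proteins and regulators that form the extracellular matrix of the villus and the crypt. Adhesive glycoproteins such as fibronectin bind cells through integrins. Matricellular proteins, among them periostin, tenascin C and the thrombospondins, have little structural role and instead tune how cells attach to the matrix and respond to growth factors. In the intestine, subepithelial fibroblasts and telocytes lie directly below the epithelium, whereas other fibroblasts fill the villus core or surround the crypts.

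Cells of the 10X libraries were grouped by 13 gate genes, none of them among the 8. Cells with a Sox6 value above 0 were taken as subepithelial and split into those with Wif1 only, with Adamts18 only, the gene of a protease that marks villus tip telocytes in this study, and with neither. The remaining cells were called mesothelial-like with 3 or more of Inmt, Penk, Vit and Scara5, Fibin type with 3 or more of Chodl, Dner, Jam2 and Ptn, then crypt with Grem1 and then villus with Lpl. In 10X library 1 and 10X library 2 this gave 285 and 2699 subepithelial cells, 331 and 1107 mesothelial-like, 103 and 724 Fibin type, 1019 and 4803 crypt and 611 and 3703 villus cells, while 198 and 1308 cells fell in no group. The subepithelial cells held 114 and 817 with Wif1 only, 153 and 1704 with neither, and 18 and 174 with Adamts18 only, and the 4 cells with both genes were set aside. A group rests on the detection of 1 gene or a few, so that cells without a UMI of Wif1 or Adamts18 may still express it.

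Cells held a median of 8757 UMIs in library 1 and 6874 in library 2. Medians per group lay between 5983 UMIs (villus, library 2) and 11976 UMIs (Wif1 only, library 1), and every group was deeper in library 1. Summed marker lists were highest in the group of their own name, with 1 exception. Subepithelial markers (7 genes, such as Pdgfra, F3 and Bmp5) summed to 49.9 and 51.8 UMIs per 10,000 in Sox6 cells and to 4.86 to 23.9 in the other groups. Fibin type markers summed to 67.0 and 55.5 in their group and to at most 4.63 elsewhere. The crypt list was the exception, since it summed to 49.0 and 42.2 in mesothelial-like cells and to 38.1 and 35.1 in crypt cells. The mesothelial list itself summed to 16.2 and 18.1 in mesothelial-like cells, with Wt1, a transcription factor of mesothelium, at 0.349 and 0.454.

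Sequences before the transcription start are shown for the 3 genes on which the results turn most, Postn and Tnc, which were both higher in Adamts18 cells, and Thbs2, which was high in Fibin type cells. They are the 250 bases before a RefSeq start in the GRCm38.p6 build, on the strand of the gene and 5′ to 3′, at chr3:54360857-54361106 (plus strand, Postn), chr4:64047016-64047265 (minus strand, Tnc) and chr17:14694263-14694512 (minus strand, Thbs2). RefSeq entries matched 5 of the 8 genes: Postn and Tnc with 2 starts each, of which the nearer to the GENCODE gene start is shown, and Thbs2, Aspn and Cilp with 1. Capitals mark TATAAA, the core of the TATA box, searched on the gene's own strand.
Postn: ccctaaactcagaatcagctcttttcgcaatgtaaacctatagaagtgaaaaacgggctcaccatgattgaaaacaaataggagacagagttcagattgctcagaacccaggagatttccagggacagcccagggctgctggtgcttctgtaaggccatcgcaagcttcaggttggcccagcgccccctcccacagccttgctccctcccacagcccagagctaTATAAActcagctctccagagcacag
Tnc: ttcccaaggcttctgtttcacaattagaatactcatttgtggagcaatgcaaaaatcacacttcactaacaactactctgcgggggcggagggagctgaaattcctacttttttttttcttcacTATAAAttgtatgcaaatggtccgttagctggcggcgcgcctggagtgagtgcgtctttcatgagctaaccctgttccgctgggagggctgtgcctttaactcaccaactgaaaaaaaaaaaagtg
Thbs2: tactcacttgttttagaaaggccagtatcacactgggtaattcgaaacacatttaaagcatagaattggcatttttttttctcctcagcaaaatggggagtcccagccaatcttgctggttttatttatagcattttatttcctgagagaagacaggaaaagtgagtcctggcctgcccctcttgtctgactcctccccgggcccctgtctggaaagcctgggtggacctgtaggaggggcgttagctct
TATAAA began 26 bases before the start of Postn and 126 bases before that of Tnc, and these letters were not in the Thbs2 window. Over all 32851 promoter entries, 7.59% held TATAAA in the same 250 bases. The other motifs searched, on both strands, were TGANTCA (AP-1), GGAATG (TEAD) and AACAAT (SOX), held by 6.75%, 12.6% and 9.42% of all entries, and none of these letters were in the windows shown. A match is a description of the sequence and not a binding site.

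Levels are given as mean UMIs of the gene per 10,000 UMIs of the cell. For detection, each cell was also thinned to 2000 UMIs, so that shares of cells with a UMI could be compared between depths. This kept 2485 of 2547 cells of library 1 and 14033 of 14344 of library 2, among them 596 of 611 and 3618 of 3703 villus cells and 168 of 198 and 1168 of 1308 cells of no group. Free RNA can give a UMI in cells that do not express a gene. Shares are therefore set beside those of immune-like cells of library 2 (80 cells with 2 or more immune markers, 70 of them at 2000 UMIs, median 5394.5 UMIs). Of these 80 cells, 18 were among those of highest doublet score. Library 1 held only 7 such cells. Some fibroblast groups lay below the immune-like share, such as Wif1 cells for Spon2 (12.3% against 38.6%), so it is not a measure of free RNA alone, and the part of free RNA in a low share was not tested. Differences are given on the natural log scale of the deposited values. They come from limma fits to the means of each group in each library, in which library entered as a block, and stand with the SD of the 2 library values (n = 2 libraries) and the Benjamini-Hochberg adjusted p over all genes tested, those found in 5% or more of the cells of any group. A gene was called where this p was under 0.05. The SD is that of the gene's own 2 library values. The p instead rests on the spread left after group and library effects, pooled over the groups of a fit and moderated across genes. An SD and a p need not go together, and both rest on these 2 libraries, whose spread may be technical. The comparisons of subepithelial, Fibin type and mesothelial-like cells share the same crypt and villus cells, and both comparisons within Sox6 cells share the cells with neither gene.

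**Figure D1:**
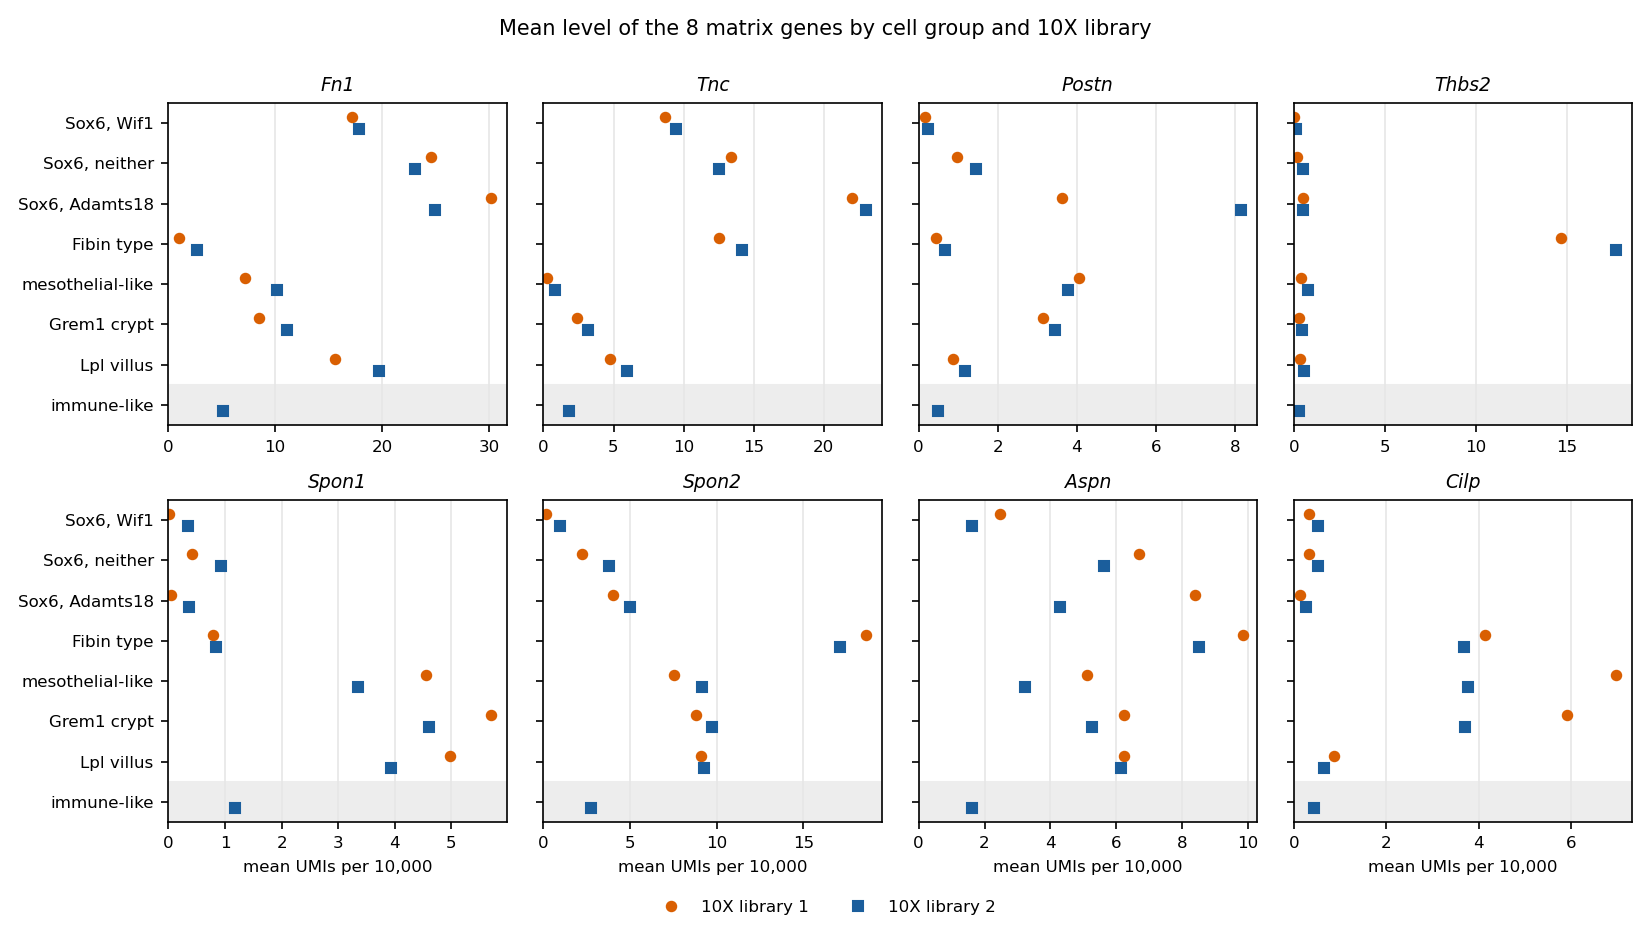
Mean level of each gene (x axis, UMIs per 10,000, linear and with its own range per gene) in 7 fibroblast groups and in immune-like cells (y axis), with 1 point per 10X library (immune-like, library 2 only). Thbs2 stands apart in Fibin type cells, at 14.7 and 17.7, and Postn is highest in Sox6 Adamts18 cells of library 2, at 8.15.

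Fn1 encodes fibronectin, the main adhesive glycoprotein of interstitial matrix, and lies on chromosome 1 of GRCm38 (71585520 to 71653200). Its level was 22.0 UMIs per 10,000 in subepithelial cells of library 1 and 21.6 in library 2. Villus cells followed with 15.6 and 19.7, crypt cells with 8.49 and 11.1, and mesothelial-like cells with 7.15 and 10.2. Fibin type cells were lowest, at 0.969 and 2.66, and the latter was 1.65 without the 155 cells of highest doublet score, which made up 21.4% of the group in library 2. The order was the same in both libraries, but crypt and mesothelial-like levels overlapped between the libraries. Fn1 was higher in subepithelial cells than in the mean of crypt and villus cells by 0.57 ± 0.21 natural log units (SD, n = 2; limma adjusted p = 0.00293). It was 1.41-fold and 1.09-fold above villus cells alone and 2.59-fold and 1.94-fold above crypt cells alone. In Fibin type cells Fn1 was lower by 1.76 ± 0.15 (SD, n = 2; limma adjusted p = 7.6e-06), the tenth largest difference of 1883 genes. At 2000 UMIs, 30.6% of Fibin type cells of library 2 had a UMI of Fn1 (exact 95% interval 27.2% to 34.1%), against 34.3% of immune-like cells (23.3% to 46.6%). Crypt cells were below villus cells by 0.67 ± 0.09 (limma adjusted p = 0.00846, n = 2), and mesothelial-like cells were below the mean of crypt and villus cells by 0.56 ± 0.09 (limma adjusted p = 0.00596, n = 2). On the log2 scale neither passed (limma adjusted p = 0.0606 and 0.0862).

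Tnc encodes tenascin C, a matricellular protein that weakens the attachment of cells to fibronectin, and lies on chromosome 4 (63959785 to 64047015). It was high in both the subepithelial cells, at 12.0 and 12.3 UMIs per 10,000, and the Fibin type cells, at 12.5 and 14.2. Villus cells held 4.77 and 5.95, crypt cells 2.39 and 3.19, and mesothelial-like cells 0.268 and 0.828. Subepithelial and Fibin type cells did not overlap with the other groups. Against the mean of crypt and villus cells, Tnc was higher by 1.17 ± 0.14 in subepithelial cells (limma adjusted p = 6.81e-06, n = 2) and by 1.14 ± 0.04 in Fibin type cells (limma adjusted p = 7.48e-06, n = 2). It was lower in mesothelial-like cells by 0.95 ± 0.04 (limma adjusted p = 7.59e-05, n = 2). There, 5.2% and 12.1% of the cells had a UMI at 2000 UMIs, and the latter is below the 20.0% of immune-like cells of the same library. Tnc was also lower in crypt than in villus cells by 0.68 ± 0.02 (limma adjusted p = 0.00171, n = 2).

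Within Sox6 cells Tnc was highest with Adamts18. It stood at 8.68 and 9.43 UMIs per 10,000 with Wif1 only, at 13.4 and 12.5 with neither gene and at 22.0 and 23.0 with Adamts18 only. The 3 groups did not overlap between libraries. Adamts18 cells exceeded cells with neither by 0.69 ± 0.11 (limma adjusted p = 0.00297, n = 2; 0.0681 without the filter on low values), whereas the 0.23 ± 0.18 between cells with neither and cells with Wif1 did not pass (limma adjusted p = 0.234, n = 2). A Tnc UMI was found in all 18 and all 174 Adamts18 cells. For Fn1, the corresponding levels were 17.2 and 17.8, 24.6 and 23.1, and 30.2 and 25.0, and neither difference within Sox6 cells passed the test (0.20 ± 0.09, limma adjusted p = 0.289; 0.22 ± 0.10, limma adjusted p = 0.163; n = 2).

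Postn encodes periostin, a matricellular protein that links collagen, fibronectin and tenascin C, and lies on chromosome 3 (54361109 to 54391037). Among the fibroblast groups it was highest in Sox6 Adamts18 cells of library 2, at 8.15 UMIs per 10,000, where library 1 gave 3.62. Mesothelial-like cells held 4.06 and 3.77 and crypt cells 3.15 and 3.46. Villus cells held 0.860 and 1.17, Sox6 cells with neither gene 0.975 and 1.45, Fibin type cells 0.431 and 0.665, and Wif1 cells 0.161 and 0.241. The Adamts18 cells of library 1, 18 in number, thus lay within the range of mesothelial-like and crypt cells, and those of library 2 lay above every other fibroblast group. Postn was higher in Adamts18 cells than in cells with neither gene by 0.91 ± 0.33 (0.68 in library 1 and 1.14 in library 2; limma adjusted p = 0.00183), the sixth largest difference of 1741 genes, but not without the filter on low values (limma adjusted p = 0.0863). On the linear scale the ratio was 3.71 and 5.62. Shares with a UMI at 2000 UMIs were 33.3% and 57.2% in Adamts18 cells, 13.2% and 15.5% with neither gene and 1.75% and 3.57% with Wif1, against 8.57% of immune-like cells. The difference of 0.29 ± 0.06 between cells with neither gene and Wif1 cells did not pass the test (limma adjusted p = 0.182, n = 2), although the levels were 6.07-fold and 6.02-fold apart. On the log2 scale of mean UMIs this difference did pass.

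Cells with markers of other types were spread unevenly over the Sox6 groups, and this touches the result on Postn. Of the Sox6 cells with neither gene, 61 of 1857 held 3 or more glia markers, against 0 of 192 Adamts18 cells, and glia-like cells of library 2 held 8.54 Postn UMIs per 10,000. Of the Adamts18 cells, 22.9% held 2 or more of the 3 genes listed for interstitial cells of Cajal, against 2.26% with neither gene. Kit, their defining marker, was at 0 in the Adamts18 cells of both libraries, while Ano1 was at 0.459 and 0.778 and Etv1 at 1.74 and 1.91. Etv1 was higher in the other Sox6 cells, at 2.37 to 4.32. Without all cells of other types Postn stood at 2.19 and 7.17 in Adamts18 cells and at 0.873 and 1.09 with neither gene, a difference of 0.80 (limma adjusted p = 0.00361).

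Outside the Sox6 cells Postn followed the crypt and mesothelial-like groups. Crypt exceeded villus cells by 0.64 ± 0.04 (limma adjusted p = 0.00125, n = 2), or 3.67-fold and 2.95-fold. Mesothelial-like cells exceeded the mean of crypt and villus by 0.51 ± 0.14 (limma adjusted p = 4.78e-04, n = 2), with levels 1.29-fold and 1.09-fold those of crypt cells alone. All subepithelial cells together were lower by 0.38 ± 0.08 (limma adjusted p = 8.66e-04, n = 2), but their level was 0.949 and 1.29 times that of villus cells alone. Fibin type cells were lower by 0.50 ± 0.01 (limma adjusted p = 1.79e-04, n = 2).

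Thbs2 encodes thrombospondin 2, a matricellular inhibitor of angiogenesis that also affects collagen fibril assembly, and lies on chromosome 17 (14665500 to 14694235). Fibin type cells held 14.7 and 17.7 UMIs per 10,000, and no other fibroblast group exceeded 0.766. The difference from the mean of crypt and villus cells was 2.32 ± 0.01 (2.31 and 2.32 in the libraries; limma adjusted p = 8.8e-09), the third largest of 1883 genes. Levels were 55.0-fold and 39.5-fold those of crypt cells and 41.5-fold and 30.5-fold those of villus cells. At 2000 UMIs a UMI was found in 83.5% and 82.7% of Fibin type cells. The other groups of library 2 lay at 2.59% to 12.4%, against 4.29% of immune-like cells (exact 95% interval 0.893% to 12%). None of the other 5 comparisons of Thbs2 passed the test, with differences from -0.06 to 0.12 and limma adjusted p from 0.0507 to 0.348.

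**Figure D2:**
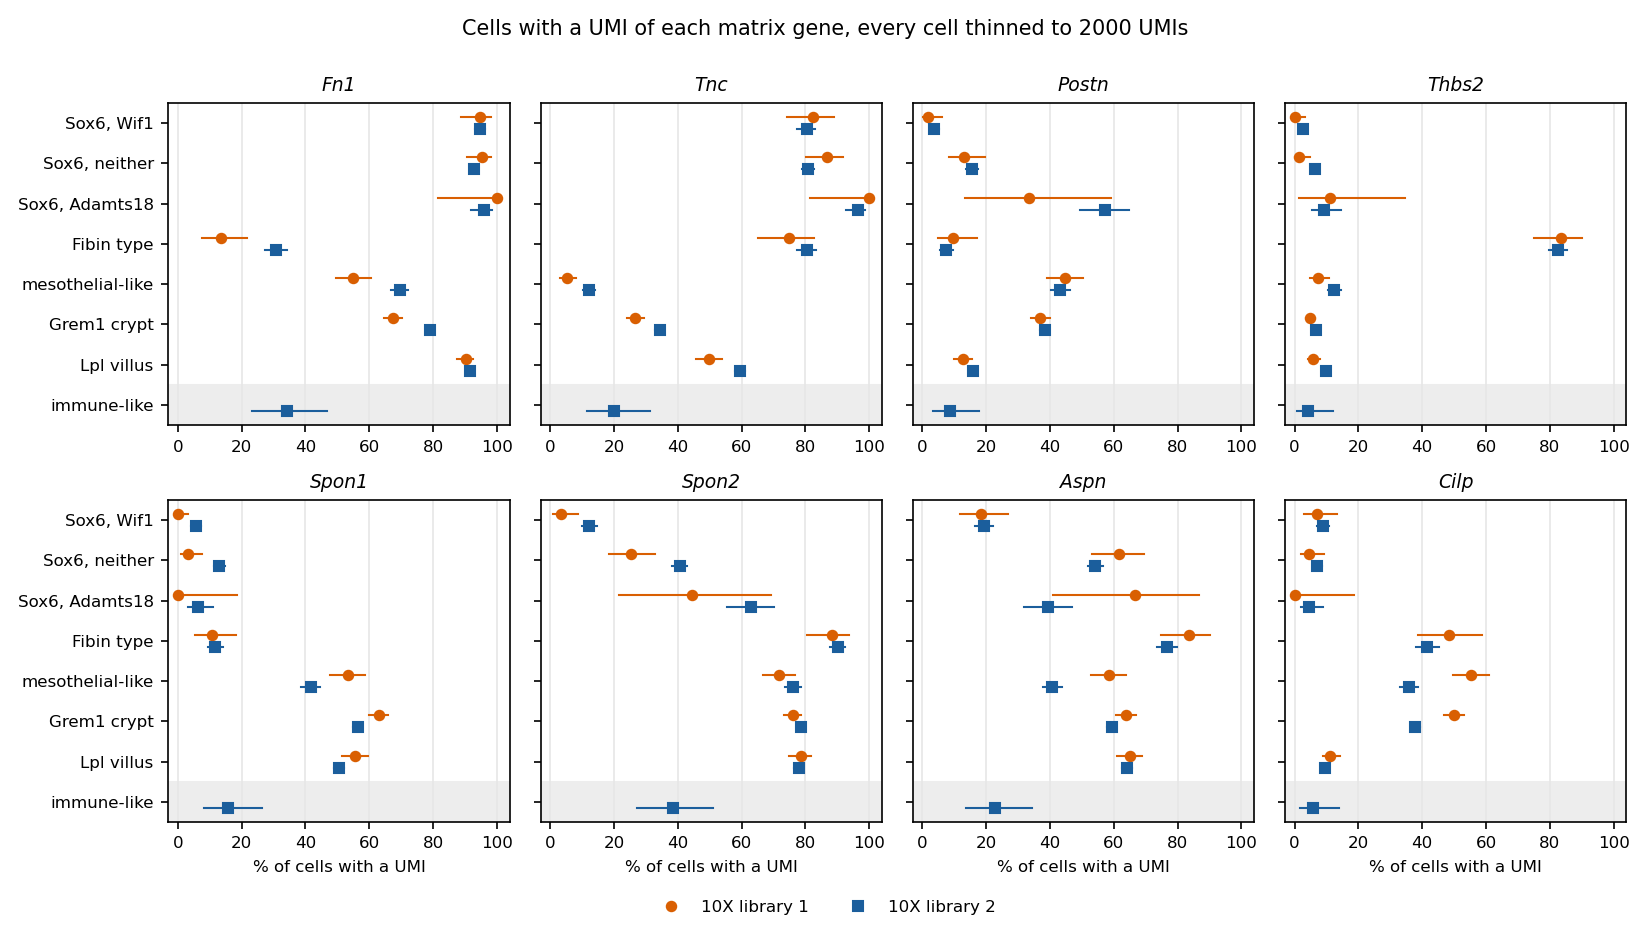
Percent of cells with at least 1 UMI of each gene (x axis) after thinning every cell to 2000 UMIs, by group (y axis) and 10X library, where lines are exact 95% binomial intervals that cover counting error only. Immune-like cells, shown for library 2 only, stand at 34.3% for Fn1 and 38.6% for Spon2, and Wif1 cells lie below them for Spon2, at 12.3%.

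Spon1 and Spon2 encode F-spondin and spondin 2, secreted proteins with thrombospondin repeats, of which spondin 2 binds integrins and bacterial surfaces. Spon1 lies on chromosome 7 (113765998 to 114043370) and was found at 5.69 and 4.60 UMIs per 10,000 in crypt cells, 4.98 and 3.93 in villus cells and 4.55 and 3.35 in mesothelial-like cells. These 3 groups overlapped between libraries, and library 1 was higher in each. Fibin type cells held 0.790 and 0.845 and subepithelial cells 0.228 and 0.718, below the former groups. Spon1 was lower in subepithelial cells by 1.32 ± 0.30 (limma adjusted p = 2.86e-05, n = 2) and in Fibin type cells by 1.22 ± 0.22 (limma adjusted p = 4.38e-05, n = 2). Their shares with a UMI at 2000 UMIs in library 2, 10.3% and 11.7%, stood beside 15.7% of immune-like cells (exact 95% interval 8.11% to 26.4%). Within Sox6 cells, Spon1 differed by 0.16 ± 0.04 between cells with neither gene and Wif1 cells (limma adjusted p = 0.0232, n = 2) and by -0.14 ± 0.06 between Adamts18 cells and cells with neither (limma adjusted p = 0.0258, n = 2). In library 2 the shares were 5.54% with Wif1, 13% with neither gene and 6.36% with Adamts18, and without the cells of highest doublet score the levels of Wif1 and Adamts18 cells fell from 0.350 to 0.168 and from 0.372 to 0.0412. Both calls were lost without the filter, the block or the mean trend, after thinning and with gates at 2 UMIs (limma adjusted p from 0.0726 to 0.56 in the Wif1 comparison and from 0.0686 to 0.431 in the Adamts18 comparison). Crypt and villus cells differed by 0.17 ± 0.03, which did not pass (limma adjusted p = 0.444, n = 2).

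Spon2, on chromosome 5 (33198184 to 33218455), differed in that Fibin type cells were the highest group, at 18.6 and 17.1 UMIs per 10,000. Crypt cells held 8.81 and 9.75, villus cells 9.11 and 9.24 and mesothelial-like cells 7.52 and 9.14, and these 3 groups overlapped. Subepithelial cells were lowest, at 1.51 and 3.01. Against the mean of crypt and villus cells Spon2 was higher in Fibin type cells by 0.63 ± 0.08 (limma adjusted p = 0.00134, n = 2) and lower in subepithelial cells by 1.39 ± 0.25 (limma adjusted p = 1.99e-05, n = 2). Crypt and villus cells differed by 0.01 ± 0.09 (limma adjusted p = 0.981, n = 2), with the sign opposite in the libraries. Among Sox6 cells the levels were 0.157 and 0.942 with Wif1, 2.23 and 3.79 with neither gene and 4.01 and 5.0 with Adamts18. Cells with neither gene exceeded Wif1 cells by 0.69 ± 0.02 (limma adjusted p = 0.00161, n = 2), and Adamts18 cells exceeded cells with neither by 0.59 ± 0.15 (limma adjusted p = 0.00183, n = 2). Both calls were lost without the library block (limma adjusted p = 0.0914 and 0.0704) and without the filter on low values (0.101 and 0.0619), and the latter also on the log2 scale (0.308). At 2000 UMIs the shares of library 2 were 12.3%, 40.6% and 63.0%, beside 38.6% of immune-like cells (exact 95% interval 27.2% to 51%).

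Aspn encodes asporin, a small leucine-rich proteoglycan that binds collagen and TGF-β, and lies on chromosome 13 (49544443 to 49567565). Fibin type cells were again highest, at 9.85 and 8.50 UMIs per 10,000, followed by villus cells at 6.23 and 6.15, crypt cells at 6.24 and 5.27, subepithelial cells at 5.10 and 4.31 and mesothelial-like cells at 5.10 and 3.22. Villus and crypt levels overlapped between libraries, as did subepithelial and mesothelial-like levels, and the latter pair lay below the former. Aspn was higher in Fibin type cells by 0.46 ± 0.01 (limma adjusted p = 0.00182, n = 2). It was lower in subepithelial cells by 0.45 ± 0.03 (limma adjusted p = 0.00192, n = 2; 0.0703 on the log2 scale) and in mesothelial-like cells by 0.35 ± 0.17 (limma adjusted p = 0.0133, n = 2; 0.0664 without the library block). The subepithelial level hid a split, since Wif1 cells held 2.46 and 1.63, cells with neither gene 6.68 and 5.61 and Adamts18 cells 8.39 and 4.28. Cells with neither gene exceeded Wif1 cells by 0.88 ± 0.05 (limma adjusted p = 0.00671), the third largest difference of 1741 genes, but the call was lost without the library block, the filter on low values or the mean trend (limma adjusted p = 0.144, 0.159 and 0.0799). At 2000 UMIs 19.2% of Wif1 cells of library 2 held an Aspn UMI, beside 22.9% of immune-like cells (exact 95% interval 13.7% to 34.4%). Between Adamts18 cells and cells with neither the libraries had opposite signs, 0.19 and -0.35 (limma adjusted p = 0.744).

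Cilp encodes cartilage intermediate layer protein, a secreted matrix protein that binds TGF-β1, and lies on chromosome 9 (65265180 to 65280605). It was found in mesothelial-like cells at 6.97 and 3.76 UMIs per 10,000, in crypt cells at 5.91 and 3.71 and in Fibin type cells at 4.14 and 3.69. These 3 groups overlapped, and library 1 was higher in each. Villus cells held 0.879 and 0.657 and subepithelial cells 0.318 and 0.507, below the former. Crypt cells exceeded villus cells by 0.93 ± 0.22 (limma adjusted p = 0.00315, n = 2), the sixth largest difference of 1883 genes and 6.72-fold and 5.65-fold on the linear scale. Mesothelial-like and Fibin type cells exceeded the mean of crypt and villus by 0.53 ± 0.24 and 0.42 ± 0.04 (limma adjusted p = 0.00945 and 0.0139, n = 2), but Fibin type cells were at 0.700 and 0.995 times the crypt level. Subepithelial cells were lower by 0.55 ± 0.20 (limma adjusted p = 0.00411, n = 2). Shares of villus and subepithelial cells with a UMI at 2000 UMIs (9.45% and 7.45% in library 2) lay within the interval of immune-like cells (5.71%, exact 95% interval 1.58% to 14%).

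**Figure D3:**
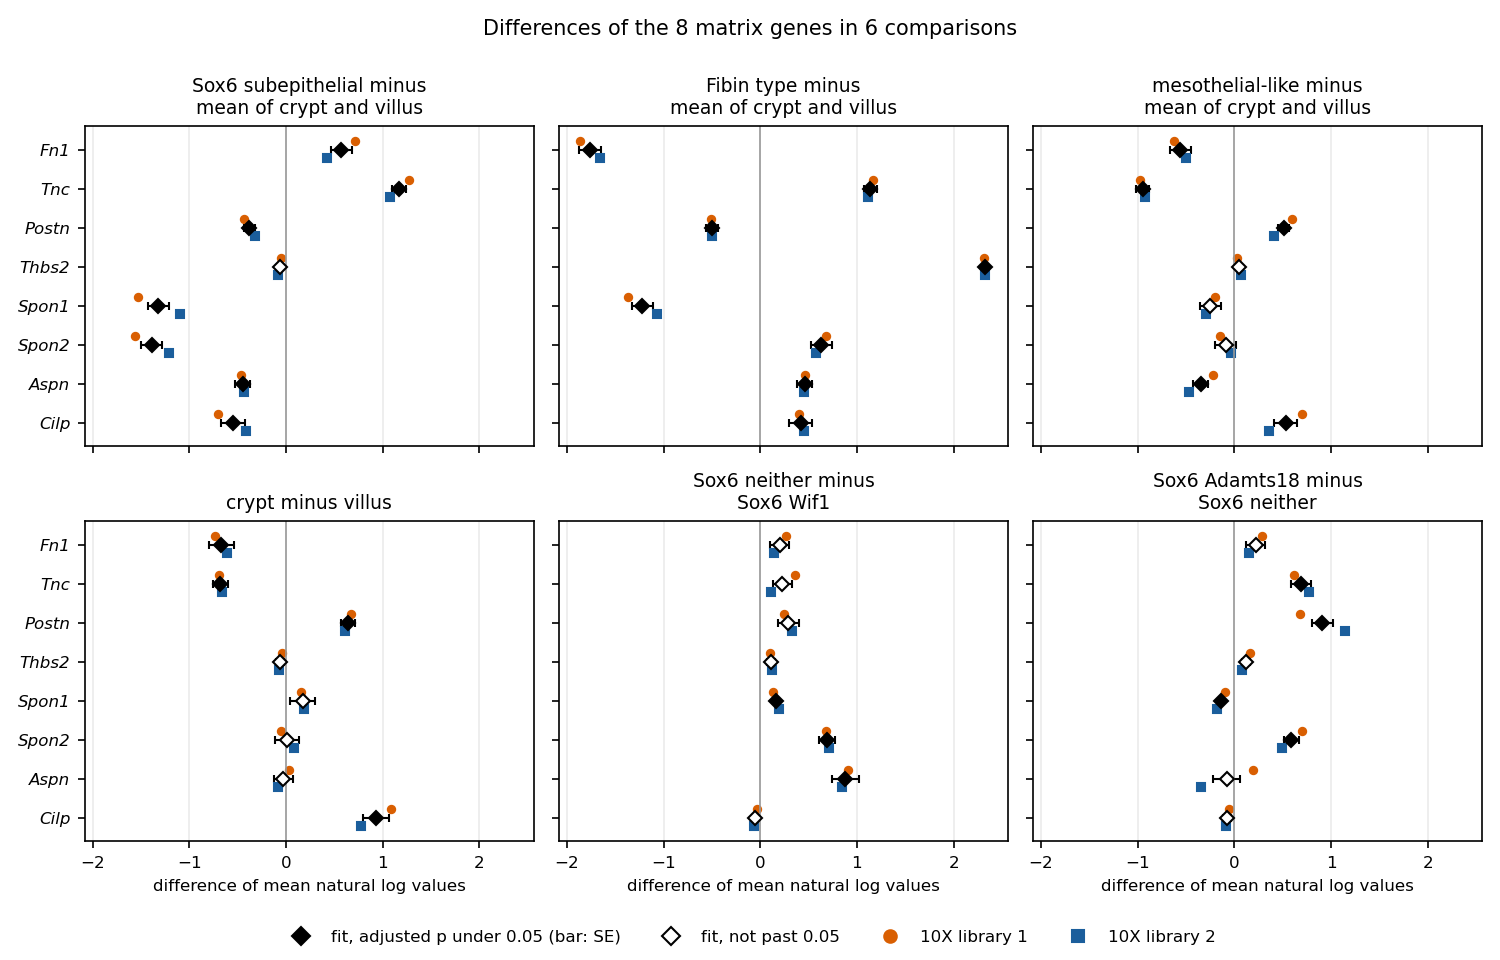
Difference of mean natural log values (x axis) of the 8 genes (y axis) in 6 comparisons, with the limma estimate and its SE (diamond and bar, filled where the adjusted p over all genes was under 0.05) and the value in each 10X library (circle and square). Thbs2 and Fn1 of Fibin type cells lie at opposite ends, at 2.32 and -1.76.

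Read by comparison, subepithelial cells held more Tnc and Fn1 and less Spon2, Spon1, Cilp, Aspn and Postn than the mean of crypt and villus cells, although Postn was not below villus cells alone in library 2. Of the 8 genes, 2 were higher, 5 were lower and Thbs2 did not pass, where 64.5% of all 1883 genes tested were called, 39.6% higher and 24.9% lower. Their median difference was -0.42, against 0.02 over all genes. Of 36 further matrix genes tested, from a list of 59 of which 40 were in the table, 14 were higher and 17 lower (median -0.02). Ogn, which encodes the leucine-rich proteoglycan osteoglycin, was higher by 2.14 ± 0.29 (limma adjusted p = 4.4e-06, n = 2), and Fbln1 and Mgp, encoding fibulin 1 and matrix Gla protein, were lower by 2.17 ± 0.40 and 1.92 ± 0.28 (limma adjusted p = 2.12e-05 and 6.41e-06, n = 2). Of 10 receptors tested (28 listed, 14 in the table), 6 were higher and 1 lower (median 0.05). The integrin subunits Itga1 and Itga11, which take part in collagen receptors, were higher by 1.04 ± 0.24 and 0.90 ± 0.23 (limma adjusted p = 3.27e-05 and 4.73e-05, n = 2).

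Fibin type cells combined Thbs2, Tnc, Spon2, Aspn and Cilp with little Fn1, Spon1 and Postn. All 8 genes passed the test, 5 higher and 3 lower, where 63.9% of all genes were called, 32.3% higher and 31.6% lower. The median difference was 0.44, against -0.00 over all genes. Of the 36 matrix genes, 8 were higher and 18 lower (median -0.16). Smoc2, the gene of a calcium-binding matricellular protein of the SPARC family, was higher by 1.69 ± 0.01 (limma adjusted p = 3.08e-06, n = 2), and Spock2, a proteoglycan gene of the same family, by 1.19 ± 0.08 (limma adjusted p = 1.85e-07, n = 2). Fbln2 (fibulin 2) was lower by 0.96 ± 0.29 (limma adjusted p = 1.02e-04, n = 2) and Vcan, which encodes the large proteoglycan versican, by 0.75 ± 0.01 (limma adjusted p = 1.32e-05, n = 2). Among receptors 2 were higher and 3 lower (median -0.03), with Itga3, the α subunit of a laminin receptor, higher by 0.30 ± 0.02 (limma adjusted p = 5.68e-07, n = 2) and Cd44, the hyaluronan receptor, lower by 0.17 ± 0.04 (limma adjusted p = 6.01e-04, n = 2).

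Mesothelial-like cells held more Cilp and Postn than the mean of crypt and villus cells, and little Tnc. Tnc, Fn1 and Aspn were lower, and Spon1, Spon2 and Thbs2 did not pass (-0.25 ± 0.07, -0.09 ± 0.09 and 0.05 ± 0.03; limma adjusted p = 0.124, 0.592 and 0.238; n = 2). Thus 5 of 8 were called, where 35.1% of all genes were (21.7% higher and 13.3% lower), and their median difference was -0.17 against 0.00 over all genes. Of the 36 matrix genes 15 were higher and 9 lower (median 0.05), with Ogn higher by 1.46 ± 0.06 (limma adjusted p = 1.02e-04, n = 2) and Mfap4, which encodes a microfibril-associated protein, lower by 0.94 ± 0.04 (limma adjusted p = 3.92e-04, n = 2). No receptor was higher and 4 of 10 were lower (median -0.05). The numbers of genes called higher and lower, 409 and 251, became 371 and 355 on the log2 scale of mean UMIs.

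Between crypt and villus cells, Cilp and Postn were higher in the crypt and Tnc and Fn1 in the villus, whereas Spon1, Spon2, Aspn and Thbs2 did not pass. Thus 4 of 8 were called, where 23.2% of all genes were (13.8% higher and 9.4% lower in the crypt), with 260 and 177 genes that became 239 and 242 on the log2 scale. The median difference was -0.01 over the 8 genes and -0.00 over all. Mgp and Fbln1 were higher in the crypt by 1.33 ± 0.12 and 1.06 ± 0.02 (limma adjusted p = 0.00125 and 0.00719, n = 2). Hmcn1 (hemicentin 1) and the elastic fibre gene Fbln5 were lower by 0.59 ± 0.06 and 0.55 ± 0.01 (limma adjusted p = 8.14e-04 and 0.00149, n = 2). Hmcn1 is also among the villus markers used to check the groups, so its direction was to be foreseen. In all, 9 of 36 matrix genes were higher and 8 lower (median 0.08), and Cd44 was lower by 0.18 ± 0.02 (limma adjusted p = 0.00481, n = 2) as 1 of 2 receptors called (median over 10 receptors -0.04).

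Within Sox6 cells, those with neither Wif1 nor Adamts18 held more Aspn, Spon2 and Spon1 than Wif1 cells, and the other 5 genes did not pass. The share called was 3 of 8, where 9.02% of 1741 genes were called (3.45% higher and 5.57% lower), and the median difference was 0.22 against -0.00 over all genes. Villus markers moved in the same direction. The 5 villus genes summed to 29.8 and 34.2 UMIs per 10,000 in Wif1 cells, 72.9 and 74.2 with neither gene, 99.7 and 108 in Adamts18 cells and 120 and 147 in villus cells, with none of the 5 at 0, and their part in the result was not tested. Cells of highest doublet score made up 2.63% and 13.2% of Wif1 cells and 5.88% and 20.0% of cells with neither, and were removed as an alternative. Aspn then stood at 2.44 and 1.46 in Wif1 cells and at 6.69 and 5.68 with neither gene. Spon2 then stood at 0.162 and 0.503 in Wif1 cells, the latter down from 0.942, and at 2.2 and 3.34 with neither gene. Postn of Wif1 cells in library 2 was 0.139 without them. Smoc2 was lower by 0.91 ± 0.04 (limma adjusted p = 0.00161, n = 2) in cells with neither gene, and Itga11 and Itga1 were lower by 0.40 ± 0.05 and 0.40 ± 0.04 (limma adjusted p = 0.0196 and 0.0226, n = 2). Of 35 matrix genes tested 7 were higher and 5 lower (median 0.01), and of 8 receptors none was higher and 2 were lower (median -0.01). The calls of this comparison depended on the library block, as 157 genes called fell to 12 without it, and Aspn, Spon2 and Spon1 were then all lost (limma adjusted p = 0.144, 0.0914 and 0.56). Without the filter on low values no gene was called by limma (462 at an unadjusted p under 0.05), and the same 3 genes were lost (limma adjusted p = 0.159, 0.101 and 0.161).

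Adamts18 cells held more Postn, Tnc and Spon2 and less Spon1 than the cells with neither gene. The share called was 4 of 8, where 18% of 1741 genes were called (9.25% higher and 8.73% lower), and the median difference was 0.17 against -0.00 over all genes. In sum over the 8 genes, Adamts18 cells held 68.9 and 66.6 UMIs per 10,000, cells with neither gene 48.8 and 48.4 and Wif1 cells 29.0 and 31.1, without overlap between the libraries. Villus, crypt, mesothelial-like and Fibin type cells lay at 35.1 to 65.3. In Adamts18 cells the largest parts of the sum were Fn1, at 43.8% and 37.5%, and Tnc, at 32% and 34.6%. Fn1 did not pass in this comparison. Sparcl1, a counter-adhesive gene of the SPARC family, was higher by 0.91 ± 0.03 (limma adjusted p = 9.12e-05, n = 2), as was Tgfbi, which encodes an integrin-binding relative of periostin, by 0.84 ± 0.27 (limma adjusted p = 0.00213, n = 2). Npnt, the gene of nephronectin, a basement membrane ligand of integrin α8β1, was higher by 0.52 ± 0.48, with 0.18 in library 1 and 0.85 in library 2 (limma adjusted p = 0.0354), while its receptor subunit Itga8 was lower by 0.08 ± 0.03 (limma adjusted p = 0.0179, n = 2). Smoc2, Prelp and Mfap4 were lower by 0.69 ± 0.24, 0.65 ± 0.01 and 0.47 ± 0.08 (limma adjusted p = 0.00263, 0.0019 and 0.00297, n = 2). In all, 4 of 35 matrix genes were higher and 9 lower (median -0.05), and 2 of 8 receptors were lower (median 0.02). Without the filter on low values 313 genes called became 1 and all 4 member calls were lost (limma adjusted p = 0.0863 for Postn, 0.0681 for Tnc, 0.0619 for Spon2 and 0.129 for Spon1). Without the library block Spon2 and Spon1 were lost (limma adjusted p = 0.0704 and 0.431), and on the log2 scale Spon2 was (limma adjusted p = 0.308). On the log2 scale 161 higher and 152 lower genes became 95 and 174, and 60 and 97 in the Wif1 comparison became 76 and 29.

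The 8 genes were next compared within single cells, as shares of cells that hold a UMI. In Adamts18 cells Tnc was found in every cell, with or without Postn, so that no relation between them can be read there, and 33.3% and 55.5% of the cells held both at 2000 UMIs. In crypt cells Tnc was found in 29.9% and 44.5% of cells with Postn and in 66.0% and 68.3% of cells without it. Cilp went with Postn there, in 80.1% and 66.4% of cells with Postn and in 51.3% and 40.4% of cells without. After thinning to 2000 UMIs the same directions were found in crypt cells, with Tnc in 14.5% and 21.5% of crypt cells with Postn against 33.8% and 42.3% without, and Cilp in 63.4% and 46.6% against 42.1% and 32.3%. These shares are descriptions over cells of 2 libraries and were not tested.

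Within Fibin type cells, the 11 and 125 cells of this group with a Postn UMI were deeper than the 92 and 599 without (medians of 10515 and 9509 against 8424 and 7074 UMIs). At 2000 UMIs a Postn UMI was left in only 10 and 53 cells, against 93 and 659 without one, so that the shares of library 1 rest on few cells. Thbs2 was found in 10% and 43.4% of the cells with Postn and in 91.4% and 85.9% of those without. Spon1 was found in 80% and 39.6% against 3.23% and 9.41%, and Fn1 in 50% and 67.9% against 9.68% and 27.6%. Cells of highest doublet score made up 6.8% and 21.4% of the group, and the level of Postn without them was 0.462 and 0.618. With Tnc, in contrast, Thbs2 was found in 93.5% and 91.4% of the thinned cells that held a Tnc UMI. It was found in 53.8% and 46.8% of the 26 and 139 cells without one. Both genes were found in 69.9% and 73.6% of the thinned cells.

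Over the means of 7 groups in 2 libraries (14 points, which share their library, depth and the Sox6 gate), Spon2 and Aspn were the members most alike, with a Pearson's r of 0.769. Tnc and Spon1 ran opposite, with r = -0.845, as did Fn1 with Cilp (r = -0.842) and with Thbs2 (r = -0.809). The genes whose means were most like those of a member, out of 1965, were Cpe, Ndnf and Nup210 for Thbs2 (r of 0.996, 0.996 and 0.995), C4b, Arap1 and Lepr for Spon1 (0.985, 0.978 and 0.973), and Cspg4, Rab31 and Mllt1 for Tnc (0.964, 0.958 and 0.954). For Cilp they were Nfkbiz, Gprc5a and Ackr4 (0.962, 0.957 and 0.954), for Fn1 Pmepa1, Zbp1 and Ephb3 (0.943, 0.925 and 0.913), and for Spon2 St3gal4, Tspan18 and Por (0.945, 0.935 and 0.894). Postn came with Nfatc2, Vegfd and Mgst1 (0.895, 0.887 and 0.88), and Aspn, after Spon2, with Fastkd3 and Ckb (0.765 and 0.744). Each r describes these 14 means only, and with so few groups a gene high in 1 group gives a high r.

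**Figure D4:**
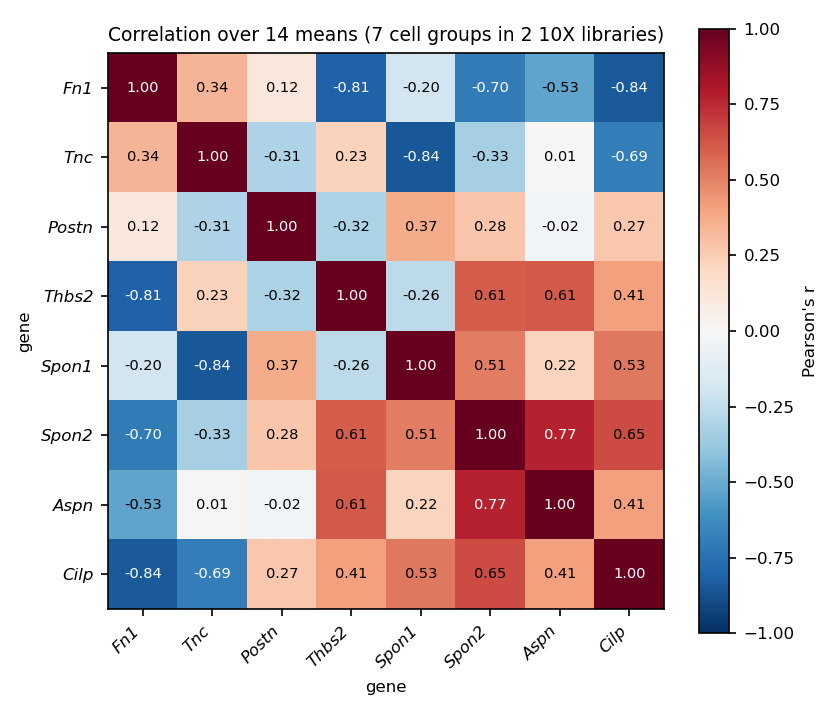
Pearson's r between the 8 genes (both axes) over the mean natural log values of 7 fibroblast groups in 2 10X libraries, coloured from -1 (blue) to 1 (red). Fn1 is negative with Cilp, Thbs2 and Spon2, and Spon2 with Aspn, at 0.769, is the highest off the diagonal.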

How the data were processed

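Single cells were sorted from mouse small intestine and profiled as 2 10X libraries and 2 Smartseq2 plates. Per the submitters' processing notes, the tools were Cell Ranger 3.1.0, Trim Galore 0.4.4, TopHat2 2.1.1, Bowtie2 2.2.6.0, SAMtools 0.1.18, Subread 1.4.6-p5 and Seurat, with the mm10 build. The authors deposited 1 table of natural log values, made by scaling each cell to its total, taking the log and integrating the libraries. It held 3891 complete genes and 17630 cells, and 1 further row ended early and was left out. Any genes after that row were not analysed. The study integrated the libraries on their most variable genes. Shares and ranks over all genes therefore refer to the genes of this table and not to all mouse genes.

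Once the natural log was undone, all values of the 16891 10X cells were whole multiples of the smallest value of their cell (tolerance 0.01 UMI). UMIs were recovered from these values, and totals ranged from 465 to 26890 UMIs. The genes of the table held 23.6% and 22.6% of these totals. Smartseq2 values ran below 0 after integration and were only described. The 10X libraries shared 7 cell barcodes. Doublets were not removed in the main analysis, since the Scrublet threshold (Scanpy 1.11.5) marked 4 and 0 cells, and an alternative left out the 52 and 1646 cells of highest score.

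Groups were compared with limma 3.58.1 (R 4.3.3) on mean natural log values per library and group, with a mean trend and the library as a block, leaving out the 13 gate genes. No count model was used. The fit was tested on simulated data, where it recovered 99.5% to 100% of 200 genes changed by 1 natural log unit in the 6 comparisons (1883 or 1741 genes). These data held normal noise, no library effect and only 1 size of change. Recovery of smaller differences, such as many of those within Sox6 cells, was not tested. False calls were 2.93% to 7.41% of all calls, with 7.41% in the Fibin type comparison and 5.66% in the Adamts18 comparison above the nominal 5%. Libraries pair the groups, since cells of all groups came from the same 2 libraries. Intervals and shares cover counting error only. The members, gene lists and gates were chosen with earlier results of these data known. All 8 members are named, with at most 3 genes of the matrix list and 3 of the receptor list per direction and comparison (those called with the same sign in both libraries and the largest difference) and the 3 genes of highest correlation with each member. Alternatives were another filter, no block, no trend, a log2 scale (pseudocount 0.1), thinning to 2000 UMIs (seed 7), gates at 2 UMIs and leaving out doublets, cells of other types or a library. Scripts ran under Python 3.11.15 with scipy 1.17.1, pandas 2.3.3, numpy 2.4.6 and, for the plots, matplotlib 3.10.9.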

Additional observations from a re-analysis of the deposited data

Results flagged for a closer look

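Postn stood out in sets of cells, chosen by markers of other types, that were not compared as groups. Of the 123 glia-like cells of 10X library 2, 62 lay among the subepithelial cells and 47 in no group, and 38 (30.9%) were among those of highest doublet score. Of its 117 smooth muscle-like cells, 43 lay in no group and 8 (6.84%) had the highest doublet scores. After thinning to 2000 UMIs, 68.9% of the glia-like cells of 10X library 2 held a Postn UMI (103 cells with 3 or more glia markers, exact 95% interval 59.1% to 77.7%), as did 62.3% of its smooth muscle-like cells (114 cells, interval 52.7% to 71.2%). Both shares lay above that of the 5 main fibroblast groups, where mesothelial-like cells of the same library reached 43.2%, and above the 8.57% of immune-like cells. Sox6 Adamts18 cells, at 57.2%, overlapped with both. Levels in library 2 were 8.54 UMIs per 10,000 in glia-like and 9.37 in smooth muscle-like cells. In library 1 the 20 smooth muscle-like cells held Postn at 5.18, with 55% of them at 2000 UMIs (interval 31.5% to 76.9%), which overlapped with the 44.6% of mesothelial-like cells. Library 1 held only 4 glia-like cells, with Postn at 3.14.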

How the results depend on the processing

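Of 31 member calls in the 6 comparisons, none reversed under any alternative, and all 31 were kept both without the cells of highest doublet score and without cells of other types. 29 were kept with gates at 2 UMIs, 29 after thinning, 28 without the mean trend, 27 on the log2 scale, 25 without the replicate block (the library) and 24 without the filter on low values. Most calls lost were within Sox6 cells. Without the filter, Postn, Tnc and Spon2 of Adamts18 cells had limma adjusted p of 0.0863, 0.0681 and 0.0619, and Spon2 and Aspn of the Wif1 comparison 0.101 and 0.159. Spon1 was lost in both Sox6 comparisons without the filter, the block or the trend, after thinning and with gates at 2 UMIs, and Aspn of the Wif1 comparison without the trend (0.0799). Of the 17 differences that had not passed, 3 passed on the log2 scale: Postn of the Wif1 comparison, Cilp of the Adamts18 comparison and Thbs2 of subepithelial cells (limma adjusted p = 0.00767, 0.0392 and 0.0168). Without the trend 2 passed, Thbs2 of subepithelial and of mesothelial-like cells (0.0145 and 0.0422), and with gates at 2 UMIs 2 passed, Tnc of the Wif1 and Thbs2 of the Adamts18 comparison (0.0311 and 0.0492).

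Counts of genes called moved by over 1.5 times only within Sox6 cells. For the Wif1 comparison, 157 genes became 0 without the filter (limma, 462 at an unadjusted p under 0.05), 12 without the replicate block, 100 without the trend, 31 after thinning and 94 with gates at 2 UMIs. For the Adamts18 comparison, 313 became 1 without the filter (674 unadjusted), 85 without the replicate block, 174 without the trend, 89 after thinning and 205 without cells of other types. The filter and thinning change how many genes and UMIs enter, and the cause of the other changes was not tested. With 1 library left out no residual degrees of freedom remain, so each library's value is given with no test. The 18 Adamts18 cells of library 1 limit all values of that group.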

Other observations

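Cells that fell in no group held all 8 genes at levels within the range of the 7 fibroblast groups, for instance Postn at 1.85 and 2.31 UMIs per 10,000 in the 2 10X libraries, Tnc at 3.85 and 4.22 and Fn1 at 9.57 and 10.9. Their median totals were 4587 and 4355.5 UMIs. Aspn was found in smooth muscle-like cells at 12.1 and 11.6 UMIs per 10,000, against 9.85 and 8.50 in Fibin type cells.

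On the Smartseq2 plates, whose values were corrected by integration and carry no depth, every one of the 8 genes had a higher median on plate 2 (379 cells) than on plate 1 (360 cells). The medians were 0.12 and 0.86 for Postn, 0.56 and 1.18 for Tnc, 2.03 and 2.38 for Fn1 and 1.86 and 2.17 for Spon2. The plates were not grouped or tested.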
